A study of Mus musculus with 9 samples.

Results

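The transcripts described here are the mouse genes named Zfp with a number, the zinc finger protein series, in whole lung. Members were the coding rows whose symbol was Zfp followed only by digits, without Zfp36 (an RNA decay factor of another finger type), and whose mean over the control libraries was at least 2 FPKM (a level per transcript length and per sequenced fragment). Of 356 rows that met the symbol rule, 259 met this floor and 97 did not, out of 18984 rows in all. C57BL/6 mice had received Aspergillus fumigatus hyphal fragments (the filamentous form of this mould), conidia of the same fungus (its airborne spores) or normal saline (control) into the trachea. Lungs were taken at 24 hours, and each of the 3 groups had 3 libraries of poly(A) RNA. The series title describes the mice as immunocompetent. No label ties the libraries to separate animals, so the p-values may measure only technical spread.

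Most of these proteins carry C2H2 fingers, short loops held by zinc that read bases of DNA. A large share of them also begins with a KRAB domain, which binds the corepressor TRIM28. TRIM28 in turn brings the histone methyltransferase SETDB1 and heterochromatin proteins to the bound site, and mammalian cells keep many transposable elements silent in this way. KRAB genes often lie in clusters of tandem copies. Other members have no KRAB domain and act in RNA handling, translation, chromosome segregation or as activators of transcription.

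Summed FPKM ranged from 492540 to 561250 over the 9 libraries, and 12451 to 13730 genes reached 1 FPKM. Depth was estimated at 19900000 to 21300000 fragments from the spacing of low values, with a fragment length of 150 bases assumed. It is a rough estimate, because 31.4 to 39.2% of those values lay within 0.1 of a whole number of fragments. Lung identity was present in every library: 8 markers of alveolar type 2 cells summed to 30281 to 34594 FPKM after hyphae, 18731 to 30068 after conidia and 23010 to 33786 in controls. Across all 13761 genes tested, the median gene was lower by 0.29 on the log2 scale after hyphae than after conidia. Every comparison was therefore made on the deposited values and again after each library was divided by a median-of-ratios factor, which puts the median gene near 0 by construction. Log2 differences below are of log2(FPKM + 1) after this rescaling unless called deposited. They carry a standard error (SE) and an adjusted p from limma (Benjamini-Hochberg over all 13761 genes), and genes with an adjusted p under 0.05 count as called. The 1 added to each value understates the change of genes with low values.

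The control libraries chose the members, so hyphae against conidia is the comparison that the floor does not touch. In it, Zfp transcripts were mostly lower after hyphae. The median member stood at 3.47, 2.83 and 2.60 FPKM in the 3 hyphae libraries, against 5.07, 5.67 and 5.67 in conidia libraries, and 5.39, 5.77 and 5.84 in control libraries. The hyphae libraries were the 3 lowest, and the conidia and control ranges overlapped. Members below 1 FPKM numbered 40, 58 and 60 in hyphae libraries, 1, 0 and 0 in conidia libraries, and 0, 0 and 1 in control libraries. The floor itself makes such values rare in controls. These counts are on deposited values and no background was counted beside them, so nothing is read from them. All members together made up 0.372, 0.372 and 0.399% of summed FPKM after hyphae, 0.421, 0.429 and 0.443% after conidia, and 0.401, 0.440 and 0.433% in controls. The member sums behind these shares were 1846, 1831 and 2059 FPKM after hyphae, 2141, 2168 and 2312 after conidia, and 2249, 2300 and 2247 in controls. The most abundant member, Zfp972, held 268, 331 and 553 FPKM of the hyphae sums, 284, 107 and 259 of the conidia sums, and 119, 59.5 and 84.0 of the control sums. Rows below the floor are not described further: 53 of the 97 passed the filter on low values and none was at 0 in all 9 libraries.

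After rescaling, 138 of 259 members were called lower after hyphae than after conidia (53.3%), where 25.4% of all genes tested were called lower. Another 42 were called higher (16.2%), where 25.4% of all genes were called higher, and 79 were not called. The median log2 difference was −0.45 over the members and −0.01 over all genes. On deposited values 173 members were called lower (66.8%) against a background of 42.5%, and 21 were called higher (8.11%) against 12.7%, with a median of −0.69 over the members and −0.29 over all genes. All coding rows with the same control floor gave 25.8% lower and 25.7% higher after rescaling, close to the figures for all genes. In 138 members the call was lower on both scales and in 21 it was higher on both. No member was called in opposite directions. The hyphae libraries were divided by 0.811 to 0.900 and the conidia libraries by 0.995 to 1.13, which raises the differences between them. Members called lower after rescaling were thus nearly bound to be lower as deposited. The same holds for members higher as deposited, which rescaling raises further. A further 35 members were called only as deposited, 21 only after rescaling and 44 on neither scale. After rescaling, all 3 hyphae libraries lay below all 3 conidia libraries for 149 members (28.6% of all genes did so) and above them for 50 (28.5% of all genes). When each of the 9 libraries was left out in turn on both scales, 121 members stayed called lower and 17 stayed called higher in all 18 fits. A mean over whole lung cannot tell fewer cells of a type from less RNA per cell.

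**Figure D1:**
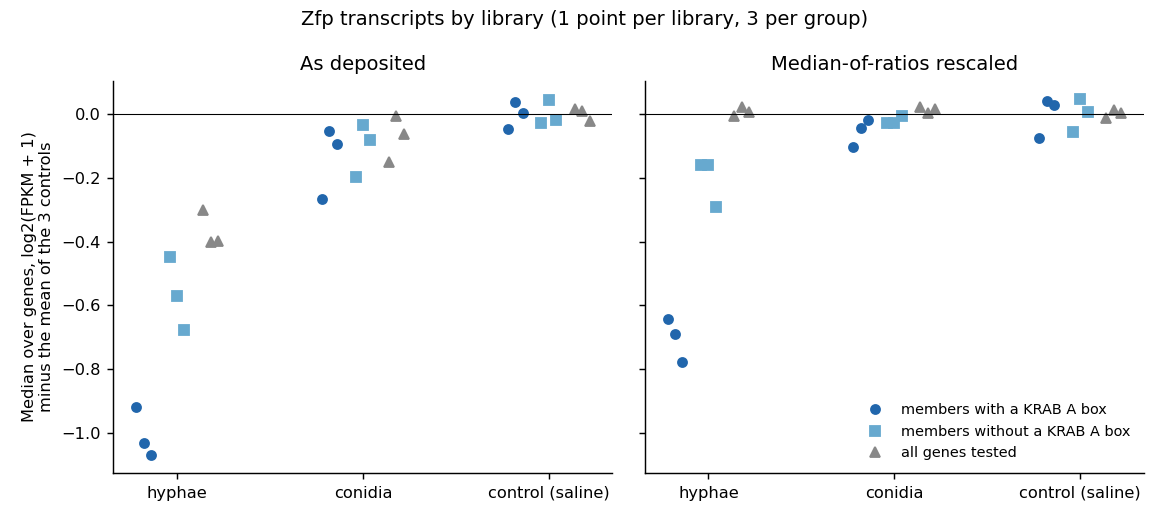
Median over genes of log2(FPKM + 1) minus the mean of the 3 controls, 1 point per library, for members with a KRAB A box (circles), members without one (squares) and all genes tested (triangles), as deposited on the left and rescaled on the right. After rescaling, the hyphae libraries sit at −0.64, −0.69 and −0.78 for KRAB members and at −0.16, −0.16 and −0.29 for the others, while all genes lie near 0.

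The control floor chose these members, so the counts against saline are given beside the background and nothing is read from them. Hyphae against control gave 148 members lower and 48 higher after rescaling, where 29.3% and 30.0% of all genes were called. On deposited values it gave 185 lower and 22 higher, with backgrounds of 50.0% and 14.9%. Members chosen instead by a conidia mean of at least 2 FPKM numbered 245, a choice that uses neither group of this comparison. Of those, 134 were called lower and 48 higher against control after rescaling.

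Conidia against control gave no called member by limma on either scale. The background was 0.0945% of all genes lower and 0.596% higher as deposited, and 0.0436% and 0.298% after rescaling. At an unadjusted p under 0.05, 42 members passed as deposited and 36 after rescaling. The members' median log2 difference was −0.11 as deposited and −0.03 rescaled. The smallest adjusted p of a member was 0.069 as deposited. One library bears on this count: without conidia replicate 2, 9 members were called lower and 3 higher as deposited, and 5 and 5 after rescaling. The comparisons with control share the control libraries.

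The members were then split by sequence features that the rule did not use, read from the longest annotated coding sequence of each gene. A KRAB A box was found by 1 fixed sequence pattern in 107 members and not in 152. Members in which the pattern was not found are called members without an A box, or the others. A box that departs from the pattern would be missed, so the others may include KRAB genes. With any annotated transcript searched, 109 members had the pattern. KRAB members were lower in larger number: 75 of 107 were called lower after hyphae than after conidia (70.1%) and 6 were called higher (5.61%), with a median log2 difference of −0.66. Of the 152 others, 63 were called lower (41.4%) and 36 higher (23.7%), with a median of −0.20. On deposited values the calls were 86 lower and 3 higher among KRAB members, and 87 lower and 18 higher among the others. The 6 KRAB members called higher were Zfp1, Zfp110, Zfp869, Zfp781, Zfp994 and Zfp65. Of these, Zfp1, Zfp110 and Zfp869 were higher on both scales. The values of Zfp781 and Zfp994 are uncertain, because each shares over 20% of its transcript with other genes in stretches of 75 or more bases. For Zfp781 the share is 99.6%. KRAB members had lower levels in control libraries, with a median of 4.42 FPKM against 7.28 FPKM for the others.

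Level was therefore set beside the KRAB split. Among members with a control mean of 2 to 5 FPKM, 77.4% of 62 KRAB members and 57.1% of 49 others were called lower, where 32.0% of all coding rows of that level were. From 5 to 10 FPKM the figures were 67.7% of 31 KRAB members and 34.0% of 50 others, against 33.4% of all coding rows. At 10 FPKM or more they were 42.9% of 14 KRAB members and 34.0% of 53 others, against 21.2% of all coding rows. The KRAB share was the higher of the pair in each band, and the 2 shares were nearest in the highest band, which holds the fewest KRAB members. From 5 to 10 FPKM the others were close to the background. These are counts across genes, which are not replicates, and the difference between the KRAB classes has no test.

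The share called lower differed with the number of C2H2 fingers and is set beside 25.4% of all genes. Of 80 members with 13 or more fingers, 76.2% were called lower and the median log2 difference was −0.71. The 85 members with 9 to 12 fingers gave 52.9% and −0.46, and the 48 with 5 to 8 gave 33.3% and −0.07. The 36 members with 1 to 4 fingers gave 38.9% and −0.14, and the 10 in which the pattern was not found had 2 called lower and a median of 0.03. Level moved with the number of fingers: the median control level was 3.77 FPKM for 13 or more fingers, 5.50 for 9 to 12, 7.96 for 5 to 8 and 11.3 for 1 to 4. Its part in the finger counts was not tested. Across the 259 members, Spearman's rho between fingers and the log2 difference was −0.34. It was −0.18 within the 107 KRAB members and −0.31 within the 152 others, so the relation was weak among KRAB members. Protein length gave a rho of 0.045. The conidia level, which enters the difference itself, gave 0.33. All these points share the same 6 libraries.

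**Figure D2:**
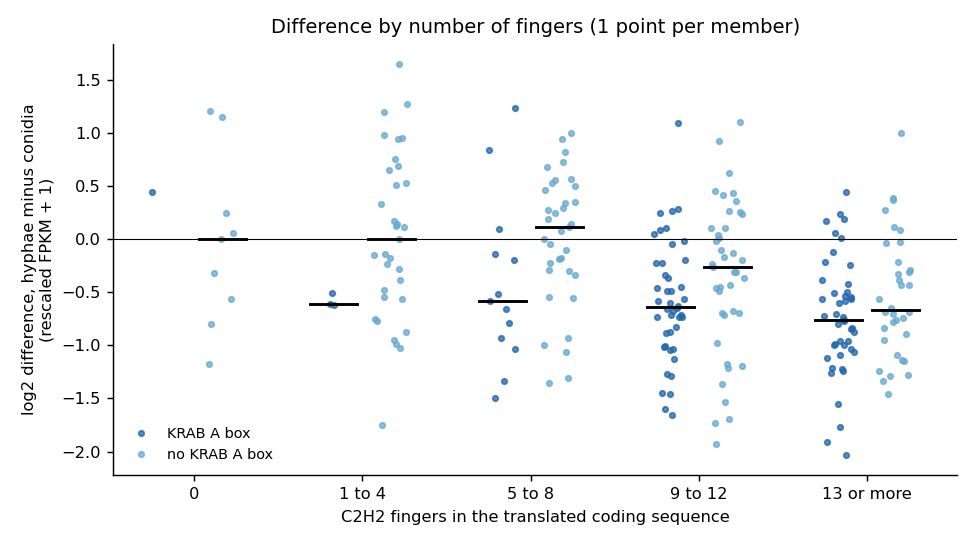
Log2 difference, hyphae minus conidia, on rescaled FPKM + 1 against the number of C2H2 fingers, 1 point per member, KRAB members in dark blue and the others in light blue, with a black bar at the median of each set of at least 3 members. Among members without a KRAB A box, the bar lies at 0.11 for 5 to 8 fingers and at −0.66 for 13 or more.

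**Figure D3:**
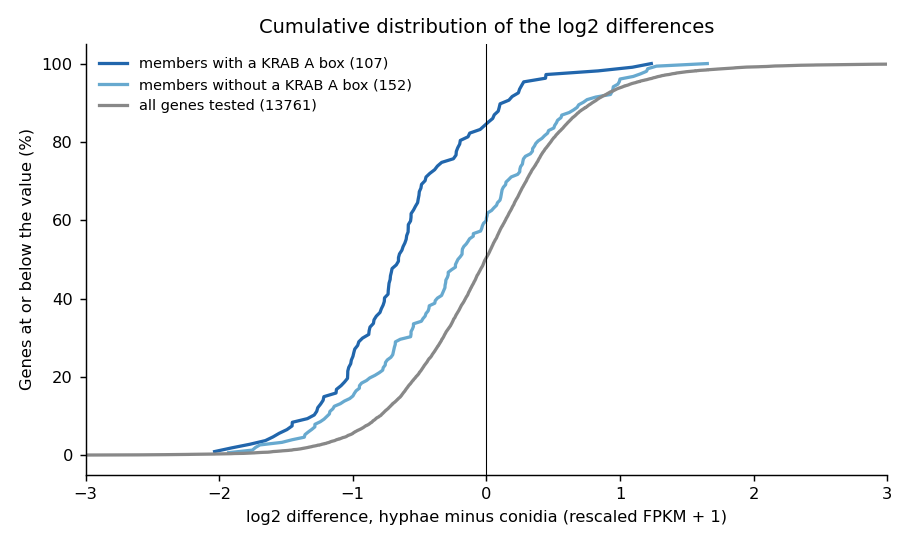
Share of genes (%) at or below each log2 difference, hyphae minus conidia, on rescaled FPKM + 1, for the 107 members with a KRAB A box, the 152 without and all 13761 genes tested. The KRAB curve lies left of the others over most of its range, and the curve of all genes crosses 0 near 50%.

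Single members show how far the lowest fell. The lowest after hyphae was Zfp760, a KRAB member with 16 fingers. It had 0.30, 0.32 and 0.17 FPKM in hyphae libraries, 3.46, 5.71 and 5.02 in conidia libraries, and 4.82, 5.11 and 6.27 in control libraries. The hyphae libraries lay far below the other 6, which overlapped. Its log2 difference from conidia was −2.03 (SE 0.15, adjusted p = 4.9e-05). Zfp101, with 12 fingers and no A box found, had 0.38, 0.27 and 0.10 FPKM after hyphae, 2.91, 4.51 and 5.34 after conidia, and 5.39, 6.23 and 5.71 in controls. Its log2 difference was −1.93 (SE 0.17, adjusted p = 7.5e-05). Here too the hyphae libraries stood apart. All 3 conidia libraries lay below every control, but conidia against control was not called (deposited log2 difference −0.39, adjusted p = 0.25).

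Zfp638 was the most abundant of the 10 lowest. Its human counterpart recruits the HUSH silencing complex to retroviral DNA, and in mouse it also takes part in fat cell differentiation. It had 2.68, 2.16 and 2.10 FPKM after hyphae, 10.8, 13.3 and 12.9 after conidia, and 11.7, 13.4 and 11.8 in controls. The log2 difference was −1.75 (SE 0.095, adjusted p = 2.8e-05), and conidia and control libraries overlapped. It has 2 fingers and no A box was found in it, unlike in most of the lowest members.

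Zfp366, known as DC-SCRIPT, marks dendritic cells and is needed by the conventional type that presents antigen to cytotoxic T cells. It stood at 0.40, 0.34 and 0.29 FPKM after hyphae, 4.42, 4.09 and 2.94 after conidia, and 1.44, 2.88 and 3.29 in controls. It differed from most others in that 2 conidia libraries lay above all controls, although conidia against control was not called (deposited log2 difference 0.47, adjusted p = 0.24). The log2 difference between hyphae and conidia was −1.70 (SE 0.22, adjusted p = 0.00039).

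The other members among the 10 lowest were Zfp160, Zfp60, Zfp866, Zfp790 and Zfp975, which carry an A box, and Zfp397, in which none was found. Their log2 differences between hyphae and conidia ran between −1.91 (Zfp160) and −1.55 (Zfp975), and the 3 hyphae libraries lay below all others for each. Zfp160 had 0.65, 0.30 and 0.40 FPKM after hyphae, 4.41, 5.37 and 5.27 after conidia, and 4.69, 6.15 and 5.88 in controls. Zfp60 averaged 0.23 ± 0.089 FPKM after hyphae, 3.56 ± 0.58 after conidia and 4.48 ± 0.38 in controls (SD, n = 3 each). Zfp975 shares 49.6% of its transcript with another gene in stretches of 75 or more bases, so its value is uncertain. Zfp397 overlaps Zscan30 in the annotation, and no source used here says whether counting used strand.

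The highest member was Zfp622, the homolog of yeast Rei1, which matures the large ribosomal subunit in the cytoplasm. It had 21.8, 23.7 and 36.9 FPKM after hyphae, 9.35, 10.3 and 10.4 after conidia, and 8.93, 10.7 and 9.53 in controls. Hyphae replicate 3 was the highest, and all 3 hyphae libraries exceeded the other 6. The log2 difference from conidia was 1.65 (SE 0.19, adjusted p = 0.00024). Zfp326, a subunit of the DBIRD complex that couples RNA polymerase II elongation to splicing in human cells, had 21.97, 24.3 and 26.2 FPKM after hyphae, 10.9, 12.5 and 12.5 after conidia, and 16.0, 16.1 and 14.1 in controls. Its log2 difference was 1.27 (SE 0.11, adjusted p = 7.1e-05). The controls lay between the other groups, above every conidia library.

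Zfp281, a repressor and activator that works with chromatin complexes in embryonic stem cells, stood at 15.0, 18.9 and 19.6 FPKM after hyphae, 11.0, 8.02 and 8.66 after conidia, and 7.14, 7.69 and 8.20 in controls. Its log2 difference from conidia was 1.20 (SE 0.18, adjusted p = 0.00077). Zfp703, a corepressor known from breast tissue, had 43.8, 52.4 and 62.2 FPKM after hyphae, 26.8, 32.0 and 28.5 after conidia, and 32.4, 35.6 and 30.4 in controls. The log2 difference was 1.15 (SE 0.15, adjusted p = 0.00037), and the hyphae libraries did not overlap either of the other groups. Zfp746, or PARIS, the parkin substrate that represses the PGC-1alpha gene, averaged 17.7 ± 0.71 FPKM after hyphae, 11.0 ± 0.40 after conidia and 11.4 ± 0.91 in controls (SD, n = 3 each). The remaining members of the 10 highest were Zfp1, Zfp869, Zfp654, Zfp628 and Zfp212, with log2 differences of 0.98 (Zfp212) to 1.23 (Zfp1). Of the 10 highest, Zfp1 and Zfp869 have an A box and Zfp628 has 16 fingers. All 20 of these extreme members were called on both scales and in every fit that left out 1 library. They were picked from these same libraries as called after rescaling with groups apart, so this was nearly fixed in advance. Zfp628 overlaps the Nat14 gene in the annotation, with the same limit on strand.

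**Figure D4:**
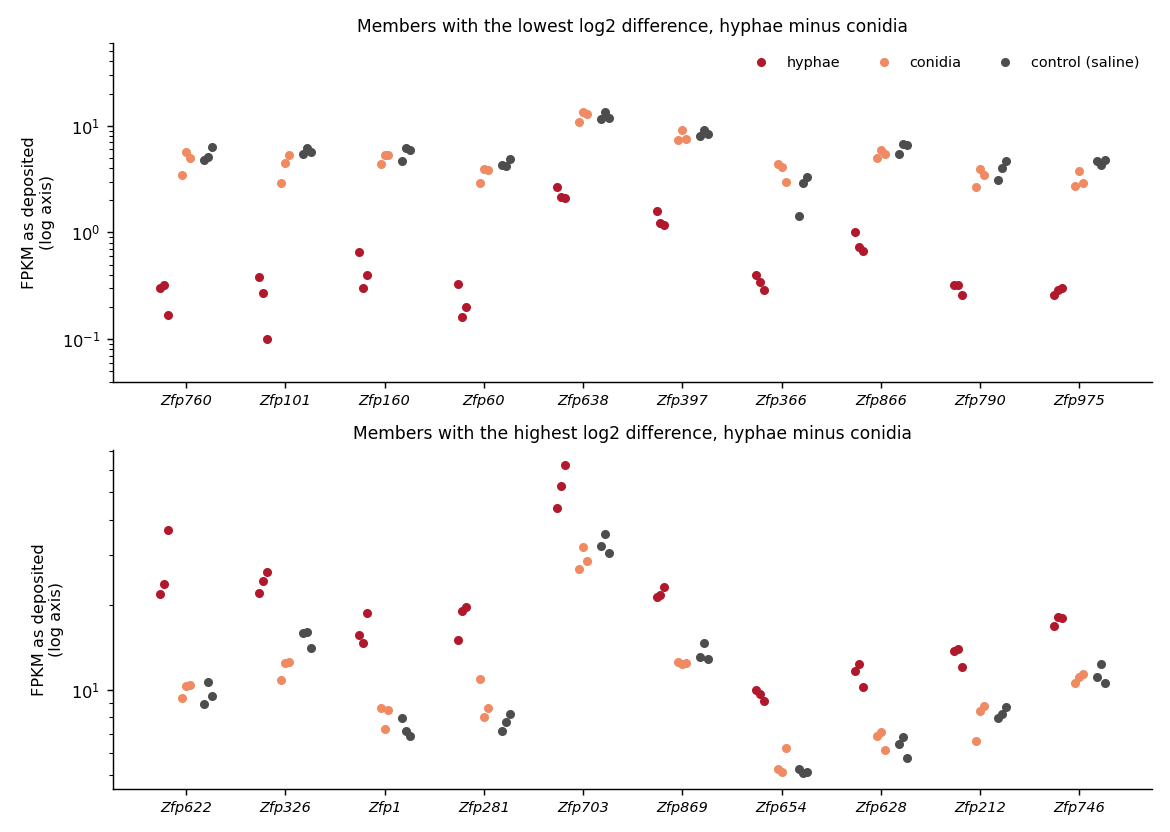
FPKM as deposited (log axis) in each of the 9 libraries for the 10 members with the lowest (top) and the 10 with the highest (bottom) log2 difference between hyphae and conidia, 1 point per library. The hyphae points of Zfp760 lie between 0.17 and 0.32 FPKM, below all others, and those of Zfp622 lie between 21.8 and 36.9 FPKM, above all others.

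The promoters of the 2 lowest and of the 2 highest members are shown as examples, with the CpG dinucleotides that stand before the gene. The letters are the 250 bases upstream of the start that RefSeq lists on GRCm38.p6, in the direction of the gene, with each CpG in capitals. The windows are chr17:21707491-21707740 (plus strand) for Zfp760, chr17:33394638-33394887 (minus strand) for Zfp101, chr15:25984116-25984365 (plus strand) for Zfp622 and chr5:105876318-105876567 (plus strand) for Zfp326.
Zfp760: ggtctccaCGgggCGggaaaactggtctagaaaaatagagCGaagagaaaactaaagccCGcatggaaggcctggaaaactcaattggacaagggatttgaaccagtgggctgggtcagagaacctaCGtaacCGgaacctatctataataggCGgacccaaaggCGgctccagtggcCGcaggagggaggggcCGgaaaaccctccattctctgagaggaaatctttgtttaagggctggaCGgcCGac
Zfp101: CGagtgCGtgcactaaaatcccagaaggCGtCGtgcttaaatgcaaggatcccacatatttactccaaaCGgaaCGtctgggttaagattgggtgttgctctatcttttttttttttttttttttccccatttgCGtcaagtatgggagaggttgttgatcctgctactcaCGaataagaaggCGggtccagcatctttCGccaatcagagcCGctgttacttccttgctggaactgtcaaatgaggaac
Zfp622: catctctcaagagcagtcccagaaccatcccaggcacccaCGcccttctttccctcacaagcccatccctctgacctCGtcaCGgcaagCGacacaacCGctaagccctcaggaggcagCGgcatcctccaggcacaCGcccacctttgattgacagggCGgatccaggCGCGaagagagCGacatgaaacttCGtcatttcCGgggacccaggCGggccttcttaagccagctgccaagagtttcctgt
Zfp326: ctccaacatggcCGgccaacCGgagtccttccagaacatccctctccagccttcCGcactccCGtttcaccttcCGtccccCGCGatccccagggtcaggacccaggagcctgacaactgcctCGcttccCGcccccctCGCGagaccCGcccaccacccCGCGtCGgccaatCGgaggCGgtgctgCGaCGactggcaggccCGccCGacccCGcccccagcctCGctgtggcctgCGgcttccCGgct
These hold 12, 11, 14 and 25 CpGs, in that order, and do not stand for the other members. Promoters found among the 10 lowest held 7 (Zfp975) to 14 (Zfp60 and Zfp790). Those found among the 10 highest held 6 (Zfp869) to 33 (Zfp746), so the ranges overlapped. The motif searched was CG, which reads the same on both strands, and 98.7% of the 10922 promoters found for all genes tested hold at least 1. A promoter was found for 214 of 259 members (82.6%), with a median of 12 CpGs. The 119 with a promoter among the members called lower (86.2% of these) had a median of 10, and the 95 among the KRAB members (88.8%) had a median of 8. For all genes tested, members without an A box and members called higher, fewer than 80% had a promoter, so a comparison between these sets is void.

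By role, the lists below are short, and their counts stand beside 25.4% of all genes called in each direction after rescaling. Members known to silence retroelements or keep imprints were lower or did not pass, hyphae against conidia. Zfp809, which recognises the primer binding site of murine leukaemia virus, had 12.4, 8.55 and 7.34 FPKM after hyphae, 29.1, 20.8 and 25.2 after conidia, and 17.4, 17.1 and 22.8 in controls (log2 difference −1.03, SE 0.21, adjusted p = 0.0034). The hyphae libraries were the lowest, and 2 conidia libraries were the highest. Zfp57, which maintains methylation at imprinted loci, averaged 8.49 ± 0.43 FPKM after hyphae, 17.01 ± 2.7 after conidia and 18.1 ± 3.7 in controls (SD, n = 3 each), with a log2 difference of −0.61 (adjusted p = 0.0071). Zfp932, which binds endogenous retroviruses, also fell (−0.84, adjusted p = 0.00083), but 58.3% of its transcript is shared with other genes. Zfp568, which represses a placental Igf2 transcript in mouse, had 3.65, 3.71 and 3.53 FPKM after hyphae, 3.58, 3.67 and 3.80 after conidia, and 3, 4.07 and 3.95 in controls. It was not called (0.25, adjusted p = 0.11), and its groups overlapped as deposited. After rescaling its hyphae libraries lay above all conidia and control libraries, and hyphae against control was called higher (0.33, SE 0.12, adjusted p = 0.037). Zfp708 and Zfp819, also on this list, were not members.

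The 8 members that act on RNA or ribosomes split evenly, with 3 higher, 3 lower and 2 not called on both scales. Zfp598, the ubiquitin ligase that marks collided ribosomes, rose with Zfp622 and Zfp326: it had 34.5, 46.7 and 52.1 FPKM after hyphae, 34.2, 29.5 and 33.4 after conidia, and 31.5, 30.3 and 26.6 in controls (log2 difference 0.75, SE 0.18, adjusted p = 0.0082). Hyphae replicate 1 was only just above the conidia libraries. Zfp638, Zfp346 (a binder of double-stranded RNA; log2 difference −0.55, adjusted p = 0.0033) and Zfp830 (−0.39, adjusted p = 0.049) were lower, and Zfp830 overlapped between groups after rescaling. Zfp593, whose yeast homolog helps export the large ribosomal subunit, and the RNA-binding Zfp106 were not called, at 0.33 (adjusted p = 0.16) and 0.17 (adjusted p = 0.23).

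Among 4 members with roles in the spindle, replication or repair, Zfp207 was the most abundant. This protein, BuGZ, loads the checkpoint protein Bub3 onto kinetochores. It had 33.4, 27.9 and 26.4 FPKM after hyphae, 68.9, 63.9 and 71.6 after conidia, and 60.8, 64.9 and 60.2 in controls (log2 difference −0.87, SE 0.10, adjusted p = 0.00026). Its 3 hyphae libraries stood at less than any other library by a wide margin. Zfp668 was lower (−0.33, adjusted p = 0.031). The SUMO ligase Zfp451 was called higher only after rescaling (0.43, adjusted p = 0.0042), at 0.14 as deposited, and Zfp365 was not called (0.25, adjusted p = 0.21).

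Of 10 members that partner chromatin complexes, 3 were higher and 2 lower after rescaling, and 3 higher and 4 lower as deposited, where 12.7% of all genes were higher and 42.5% lower. Both lower counts and the rescaled higher count were near these backgrounds. Zfp410, an activator whose chief target is the NuRD subunit gene Chd4, had 18.1, 19.7 and 14.8 FPKM after hyphae, 11.96, 12.5 and 14.2 after conidia, and 13.3, 12.9 and 12.1 in controls (log2 difference 0.73, adjusted p = 0.0011). Zfp592, of the Z3 complex, was higher with Zfp281 (0.56, adjusted p = 0.0037), while its partners Zfp687 (−0.26, adjusted p = 0.089) and Zfp532 (−0.23, adjusted p = 0.12) were called lower only as deposited. Zfp219 (−0.69, adjusted p = 0.00094) and Zfp148 (−0.29, adjusted p = 0.033) were lower on both scales. Zfp217, Zfp462 and Zfp827 were not called on either scale, with values of 0.08, 0.08 and −0.10.

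Of 5 members on the list of mesenchymal and adipocyte regulators, Zfp703 was higher and Zfp521, a regulator of adipocyte and blood precursors, was lower (−0.68, adjusted p = 0.00090). Zfp521 had 1.05, 0.85 and 1.04 FPKM after hyphae, 2.30, 3.21 and 2.42 after conidia, and 2.85, 2.79 and 2.81 in controls. Zfp467 was called lower only as deposited (−0.37, adjusted p = 0.084 after rescaling). Zfp516 (0.26, adjusted p = 0.11) and Zfp503 (adjusted p = 0.999) were not called on either scale. Zfp423 was not a member. Of 5 immune cell and NF-kB regulators, Zfp91, a ubiquitin ligase of the noncanonical NF-kB pathway, was higher. It had 53.4, 53.4 and 48.0 FPKM after hyphae, 34.7, 30.0 and 35.0 after conidia, and 31.9, 32.5 and 32.2 in controls (0.95, SE 0.11, adjusted p = 0.00024). Zfp64, a cofactor in Toll-like receptor signalling, was called higher only after rescaling (0.62, adjusted p = 0.0025). Zfp335, needed for T cell maturation, was lower (−0.38, adjusted p = 0.010). Zfp318, which B cells need to make IgD, was called lower only as deposited (−0.15, adjusted p = 0.22 after rescaling), and Zfp609 was not called (0.01). Zfp683 was not a member.

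Of 3 promoter-binding activators, Zfp143, which sits at many promoters and takes part in chromatin looping, was lower. It had 2.44, 2.19 and 2.15 FPKM after hyphae, 10.1, 7.22 and 8.70 after conidia, and 7.09, 7.62 and 6.65 in controls (−1.31, SE 0.14, adjusted p = 0.00018). The other two changed direction with the scale. Zfp263 was called lower as deposited (−0.29, adjusted p = 0.050, just under the threshold) and stood at 0.01 (adjusted p = 0.96) after rescaling. Zfp384 stood at −0.05 (adjusted p = 0.65) as deposited and was called higher after rescaling (0.28, adjusted p = 0.022).

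The most abundant members in control libraries were Zfp972, Zfp207, Zfp970, Zfp488, Zfp579, Zfp740, Zfp703 and Zfp91. Zfp972, with the values given above, averaged 384 ± 149 FPKM after hyphae, 217 ± 96 after conidia and 87.6 ± 30 in controls (SD, n = 3 each). Its libraries spread widely within each group, and the difference between hyphae and conidia did not pass (1.21, SE 0.46, adjusted p = 0.053). No finger was found in its annotated coding sequence, and 64.2% of its transcript is shared with other genes. Zfp970 went the other way, at 11.4, 13.9 and 12.1 FPKM after hyphae, 31.6, 30.0 and 46.7 after conidia, and 52.9, 51.0 and 68.0 in controls (−1.12, adjusted p = 0.0018), with 72.3% of its transcript shared. Zfp579 was lower (−0.999, adjusted p = 0.00087) and Zfp740 was not called (0.15, adjusted p = 0.24). Zfp488, known from oligodendrocytes, was called higher after hyphae than after conidia (0.94, adjusted p = 0.0013), yet its hyphae values of 50.5, 49.9 and 65.8 FPKM overlapped the control values of 63.1, 55.6 and 46.0 as deposited. Hyphae against control stood at 0.01 (adjusted p = 0.95) as deposited and was called higher after rescaling (0.44, SE 0.15, adjusted p = 0.036). Its conidia libraries were the low ones, at 29.5, 39.6 and 38.6 FPKM.

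At the floor itself, the members just inside by control mean were Zfp59, Zfp81 and Zfp462, and the rows just outside were Zfp169, Zfp2 and Zfp870. Zfp59 averaged 0.377 FPKM after hyphae, 1.93 after conidia and 2.01 in controls, and is uncertain since 70.8% of its transcript is shared. Zfp81 averaged 1.28 FPKM after hyphae, 2.15 after conidia and 2.05 in controls, and Zfp462 averaged 1.26, 1.45 and 2.01 in the same order. Just outside, Zfp169 averaged 0.617 FPKM after hyphae, 1.64 after conidia and 1.96 in controls, Zfp2 averaged 1.36, 1.38 and 1.95, and Zfp870 averaged 0.553, 2.09 and 1.94. A value of 0 occurred in 1 member, Zfp967, which is listed at 0 in hyphae replicate 1 and at 0.01 in control replicate 3, while control replicate 2 had 11.7 FPKM.

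In the RefSeq gene order of GRCm38, 95 members stood next to another member, in 33 runs of neighbouring coding genes, and 164 had no member as a neighbour. After rescaling, 60 of the 95 were called lower after hyphae than after conidia (63.2%) and 14 higher. Of the 164, 78 were called lower (47.6%) and 28 higher, where 25.4% of all genes were called in each direction. The runs held 55 KRAB members and the others 52, so the KRAB share also differed between them. Of the 33 runs, 9 held both a member called higher and one called lower, 23 held members called lower and none called higher, and 0 held members called higher and none called lower. The run Zfp398, Zfp282, Zfp212, Zfp956, Zfp777 and Zfp746 had 5 members called higher and 1, Zfp282, called lower (−0.51, adjusted p = 0.0021). Zfp282 is the only one of these 6 in which the A box pattern was found, but a box that departs from the pattern would be missed in the others. Of the 5, Zfp398 and Zfp956 were called only after rescaling. In contrast, 5 of the 6 members in the run Zfp420, Zfp27, Zfp383, Zfp74, Zfp568 and Zfp14 were lower and only Zfp568 was not called. Zfp60, Zfp626 and Zfp59 were all lower, at −1.77, −1.22 and −0.96. In the run Zfp869, Zfp963 and Zfp866, all with an A box, Zfp869 was higher (1.09) and Zfp866 lower (−1.65).

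**Figure D5:**
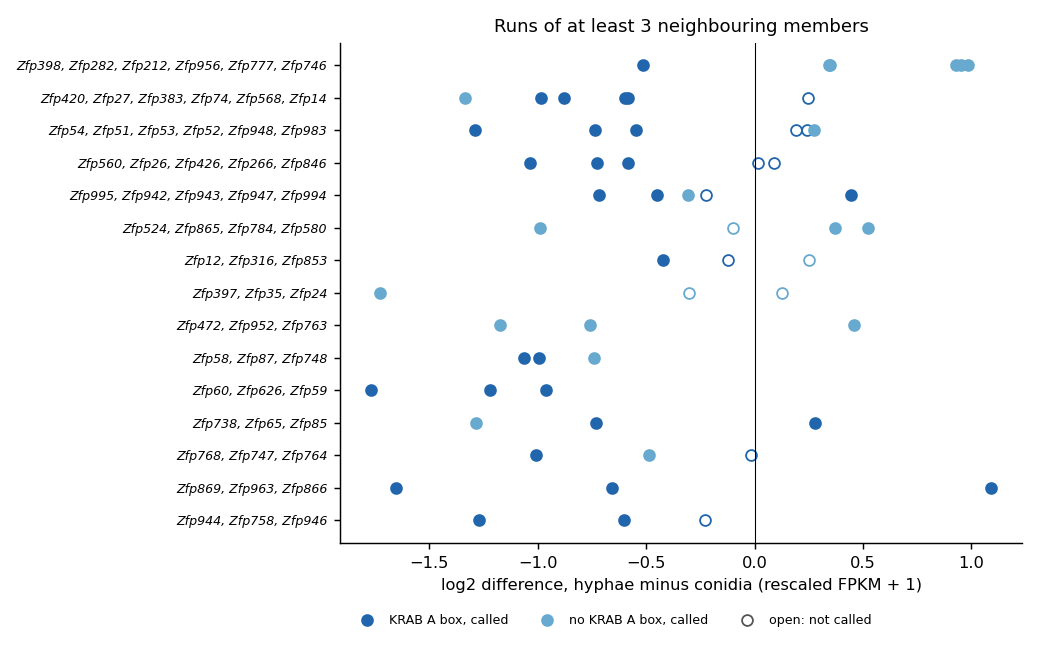
Log2 difference, hyphae minus conidia, on rescaled FPKM + 1 for each member of the 15 runs of at least 3 neighbouring members, 1 row per run, with filled points for called members and dark points for those with a KRAB A box. The run at the top has 5 of 6 members right of 0, and the run below it has 5 of 6 left of 0.

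Near-identical copies limit single values in this family. In stretches of 75 or more bases, 37 members share over 20% of their transcript with another gene, and 168 share none. Without those 37, 115 of 222 members were called lower after hyphae than after conidia after rescaling and 39 higher, with a median log2 difference of −0.38. In the annotation, 30 members overlap another coding gene. These include Zfp219, Zfp346, Zfp687, Zfp740, Zfp809, Zfp830 and Zfp91 among those named above.

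Genes of the corepressor machinery that KRAB proteins recruit were listed together with other silencing genes such as Dnmt1, Uhrf1 and Eed. On this list, 22 genes were tested. Of these, 11 were called lower and 4 higher after rescaling (25.4% of all genes in each direction), with a median log2 difference of −0.26, and 13 lower and 1 higher as deposited. Trim28 itself averaged 23.6 ± 3.2 FPKM after hyphae, 34.4 ± 3.3 after conidia and 38.7 ± 0.69 in controls (SD, n = 3 each). It was called lower than after conidia only as deposited (−0.53, adjusted p = 0.0038), at −0.21 (adjusted p = 0.062) after rescaling. Setdb1, its methyltransferase partner, averaged 4.59 ± 0.12 FPKM after hyphae, 9.64 ± 0.91 after conidia and 10.9 ± 0.45 in controls, and was lower on both scales (−0.64, SE 0.076, adjusted p = 0.00027). Atf7ip, which stabilises SETDB1, was the lowest of the list at 4.09 ± 0.37 FPKM after hyphae, 15.3 ± 1.7 after conidia and 16.8 ± 1.2 in controls (−1.39, adjusted p = 4.5e-05). Fam208a and Mphosph8, subunits of the HUSH complex, were lower by both scales (−1.19 and −0.38), as were Cbx1, Cbx5, Hdac2, Dnmt1, Smarcad1, Morc3 and Uhrf1. Eed, a subunit of the Polycomb complex PRC2, was higher on both scales (0.61, adjusted p = 0.0039).

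Other zinc finger name families with the same control floor did not all show the same counts. Of 18 Zfp rows with a letter after the number, 10 were lower and 2 higher after hyphae than after conidia after rescaling. The Zscan and Zkscan rows gave 9 lower and 3 higher of 16. Zbtb rows, which carry a BTB domain in place of KRAB, gave 10 lower and 12 higher of 33, near the 25.4% of all genes called in each direction for the lower count, and Klf rows gave 1 lower and 9 higher of 13. No test of a difference between these families was made.

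Summed markers of other cell types differed between some groups and overlapped between others. The 10 neutrophil markers summed to 681 to 5891 FPKM after hyphae, 833 to 3131 after conidia and 71.7 to 137 in controls, with Ly6g listed at 0 in 1 control library and no other marker at 0. The 8 B cell markers summed to 22.4 to 62.5 FPKM after hyphae, 29.5 to 136 after conidia and 101 to 181 in controls, and the 8 of 9 T cell markers in the files to 10.02 to 18.2, 11.5 to 34.7 and 24.0 to 32.9 in the same order. Ciliated cell markers (8) summed to 280 to 396 FPKM after hyphae, 248 to 493 after conidia and 569 to 760 in controls. Club cell markers (6) gave 32201 to 41184, 46988 to 64075 and 68797 to 125121. The 8 fibroblast markers gave 434 to 499, 449 to 676 and 525 to 888, and the 10 endothelial markers gave 1145 to 1294, 1109 to 1234 and 885 to 1261. For neutrophils, B cells, T cells and ciliated cells the hyphae and conidia ranges overlapped. The summed ranges of these groups were apart for club cells, lower after hyphae, and for alveolar type 2 cells, higher after hyphae. Ranges of sums do not show each marker: 3 of the 8 ciliated cell markers were called lower after hyphae than after conidia on both scales, with a median log2 difference of −0.88 as deposited and −0.64 after rescaling, and 1 was called higher after rescaling. Of the 6 club cell markers, 0 were called as deposited (median log2 difference 0.002), and 2 were called higher and 0 lower after rescaling (median 0.34). Of the 8 alveolar type 2 markers, 1 was called higher and 2 lower as deposited, and 3 higher and 1 lower after rescaling. Of the 10 endothelial markers, 1 was called higher and 4 lower as deposited, and 3 higher and 3 lower after rescaling. Their log2 differences ran from −4.71, the lowest of all genes tested, to 0.97 after rescaling. The part of any of these cell types in the Zfp values was not tested.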

How the data were processed

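Poly(A) RNA of 9 mouse lung libraries was sequenced on a BGISEQ instrument, per the labels' protocols. The authors deposited FPKM values, per the file headers, in 1 file per library. The submitters' processing notes list HISAT, Bowtie2 and mm9 with no roles, and no source used here names the tool behind the FPKM values. The files hold no counts, so depth is known only roughly and no counting intervals are given.

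After conversion to log2(FPKM + 1), the 13761 genes that reached 1 FPKM in 3 or more of the 9 libraries entered 1 limma-trend fit with robust moderation (R 4.3.3, limma 3.58.1), two-sided, with Benjamini-Hochberg adjustment over all of them. For 3 against 3 libraries the smallest two-sided p of an exact permutation test is 0.1. Median-of-ratios factors came from 15897 genes above 0 in all 9 libraries. On data simulated for hyphae against conidia (13761 genes), 98 genes were changed by 1 log2 unit and 102 by 2. The fit recovered 67.3% of the 98 and 93.1% of the 102, with 8 false calls. In the comparison itself, 42.5% of all genes tested were called lower and 12.7% higher as deposited. Whether the recovered shares and the number of false calls hold with so many genes called was not tested.

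Fingers (C, 2 to 4 residues, C, 12 residues, H, 3 to 5 residues, H) and the KRAB A box (D, [VLI], any, [VIL], any, [FL], any pair, [EQD], E, W, within the first 250 residues) were searched in the translated longest coding sequence of GENCODE M21, whereas RefSeq proteins had been planned. Promoters and gene order came from RefSeq on GRCm38, matched by Entrez ID. No coordinates of mm9 were used. Replicate numbers were not used to pair the libraries in the main fit. The members, gene lists and tests were chosen with earlier results of these data known. Named members were the 8 with the highest control mean, the 10 lowest and 10 highest by rescaled log2 difference between hyphae and conidia among called members whose groups do not overlap, those on the role lists and those next to the floor. Other genes named (runs of neighbours, KRAB members called higher, Zfp967) were singled out after their values were seen.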

Additional observations from a re-analysis of the deposited data

How the results depend on the processing

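Members called lower, hyphae against conidia and hyphae against control, stayed within 1.5 times the deposited counts (173 and 185) under other scalings, pseudocounts, filters, moderation and choices of members, except with a control mean of at least 5 FPKM, which left 148 members, of which 86 and 94 were lower (medians −0.50 and −0.59). The number called higher depended on scaling: 21 and 22 as deposited, 42 and 48 after median-of-ratios rescaling. Median log2 differences of −0.69 and −0.77 moved to −0.45 and −0.46 with rescaling, −0.60 and −0.68 with upper-quartile factors, −0.87 and −1.03 with a pseudocount of 0.1, and −0.79 and −0.89 with 0.5. Among members chosen by the conidia mean (245), rescaled counts were 42 and 48 higher, with medians of −0.44 and −0.41, and −0.015 for conidia against control. Same-numbered libraries did not consistently deviate together (correlations −0.312 to 0.425), which cannot exclude a pairing of some of them. A replicate block gave 162 lower and 19 higher for hyphae against conidia, 181 and 21 against control, and 0 for conidia against control. With the block and rescaling the higher counts were 38 and 44 and the medians −0.45 and −0.46.

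With 1 library left out, hyphae against conidia gave 155 to 178 members lower, 17 to 22 higher and medians of −0.75 to −0.63. Hyphae against control gave 174 to 191 lower and 19 to 22 higher, with medians of −0.84 to −0.74. Conidia against control gave 0 to 9 lower and 0 to 3 higher: 9 and 3 without conidia replicate 2, and 1 lower without hyphae replicate 1, with medians of −0.14 to −0.06. With rescaling, chosen after seeing the data, leaving out 1 library gave 31 to 42 higher for hyphae against conidia (medians −0.50 to −0.38), 41 to 49 higher for hyphae against control (medians −0.50 to −0.44), and 0 to 5 higher and 0 to 5 lower for conidia against control (medians −0.06 to −0.009). Zfp263 turned from −0.29 to 0.0079 and Zfp384 from −0.05 to 0.28 with rescaling, with and without the block. The cause of these shifts was not tested. Low FPKM values are the least precise, and the unknown number of fragments behind them limits the lowest members.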
